A study of Mus musculus with 458 samples.

Results

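The comparison concerned 2 kinds of haematopoietic stem cell (HSC) from mouse bone marrow: platelet-restricted cells (PLT) and multilineage cells (MUL). Members were chosen by the reconstitution status that the deposited cell table records. They number 340 of the 458 cells of the series. The 177 PLT cells came from 2 mice (93 and 84 cells), and the 163 MUL cells came from another 2 mice (78 and 85 cells).

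Each mouse had received a single transplanted Vwf-positive HSC and was typed over 16 weeks by the blood lineages that this cell replenished. Donor-derived HSCs were then index sorted from the recipient's marrow and sequenced one by one. All cells carry the strain label C57BL/6 and were sorted as LSK (lineage-negative, Sca-1-positive, Kit-positive), CD150+, CD48- and CD45.2+. In PLT mice the transplanted cell had given platelets alone, and in MUL mice it had given all lineages. No drug, added genotype, age or recipient strain is stated in the labels. Each mouse is 1 clone regrown from 1 cell, so the 2 mice of a group are the replicates and the cells of a mouse are not. Another pair of mice, whose clones were restricted to platelets, erythrocytes and myeloid cells (PEM), entered the fits for the shared spread alone.

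An HSC clone can be restricted to platelets or can feed every blood lineage, and the von Willebrand factor gene marks HSCs that are biased towards platelets. Platelets bud from megakaryocytes, which pack adhesion proteins such as von Willebrand factor and multimerin into granules. In single cells a gene's average can move in either of 2 ways: more cells can express it, or the cells that express it can each hold more of it.

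Expression was deposited as RPKM (reads relative to gene length and to the depth of the cell). Median depth was 4.51 and 5.08 M mapped reads per cell in MUL mice against 4.83 and 4.87 M in PLT mice, over a range of 1.3 to 10.5 M. The authors' count of detected genes had medians of 2210 and 2553 in MUL mice against 1869 and 2596 in PLT mice, so the groups overlapped. Mitochondrial reads made up a median percent of 6.06 and 5.34 in MUL mice against 6.41 and 6.69 in PLT mice, without overlap. Both MUL mice belong to 1 experiment, as their cell names give it, and each PLT mouse belongs to another. The group and the experiment cannot be told apart. PLT mouse 2 is recorded as female, but Xist, the RNA of the inactive X chromosome, reached 1 RPKM in 0% of its cells and the Y-linked Eif2s3y did so in 40.5%. The table does not say whether the recorded sex is that of the donor or of the recipient.

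The genes of the sort gate were checked first. Kit was at 1 RPKM or more in 51.3% and 75.3% of MUL cells and in 34.4% and 39.3% of PLT cells. Ly6a, which encodes Sca-1, was found in 53.8% and 71.8% against 38.7% and 44.0%. Cd48, the surface protein that the gate excludes, was found in 1.28% and 1.18% of MUL cells and in 0% of both PLT mice (0 of 93 and 0 of 84 cells). A floor of 3 cells, used here for shares of 0, is 3.23% and 3.57% of these mice, and it is somewhat below the upper end of the exact interval. Slamf1, which encodes CD150, was found in 10.3% and 4.71% of MUL cells and in 21.5% and 17.9% of PLT cells. RNA of Kit, Ly6a and Slamf1 was thus found in every mouse. A cell with at least 3 of 12 neutrophil markers at 1 RPKM or more was met in 14.0% of PLT mouse 1, against 1.28%, 2.35% and 1.19% of MUL mouse 1, MUL mouse 2 and PLT mouse 2. In PLT mouse 1 the marker Camp was at 1 RPKM in 14.0% of cells but at 10 RPKM in 1.08%. For Chi3l3 these shares were 19.4% and 1.08%. For each gene 1 cell of PLT mouse 1 was at 30 RPKM or more, at 22685 RPKM for Camp and 6591 RPKM for Chi3l3. On plates 1 and 2 of that mouse Camp was found in 0% and 28.3% of cells and Chi3l3 in 14.9% and 23.9%. Of these markers Elane was at 1 RPKM in no cell of any of the 4 mice. Retnlg went the other way, at 1.28% and 9.41% of MUL cells and 0% of both PLT mice. Of 10 neutrophil markers tested, 4 (40%) had higher shares in both PLT mice and 1 (10%) lower. Over all tested genes these were 7.32% and 22.1%. At least 3 of 12 mature megakaryocyte markers were met in 7.69% and 7.06% of MUL cells against 4.30% and 25.0% of PLT cells.

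For each of 11337 genes the share of cells at 1 RPKM or more was computed per mouse and compared in limma on the logit scale (the natural log of the odds). In all, 5 genes passed at a Benjamini-Hochberg adjusted p of 0.05. The share was higher in PLT for 3 genes (0.0265% of those tested) and lower for 2 (0.0176%). At an unadjusted p under 0.05 there were 125 higher and 446 lower. The same test on mean RPKM called 0 genes higher (0%) and 1 lower (0.00882%), with 277 and 676 at an unadjusted p under 0.05. Among 4557 genes with at least 5 expressing cells in each of the 6 mice, the level within expressing cells gave 0 calls in either direction (0% and 0%), with 87 higher and 97 lower at an unadjusted p under 0.05. Calls were therefore more numerous for frequency than for level, but the level test had fewer genes, and genes absent from a mouse cannot enter it. Before any test, 830 genes (7.32%) had both PLT shares above both MUL shares and 2506 (22.1%) had both below. Over all tested genes the median logit difference of the share was -0.15. It was -0.46 without PLT mouse 2 and 0.14 without PLT mouse 1, the mouse with the fewest detected genes. The part of gene detection in the counts of higher and lower shares was not tested. For level, 741 genes (16.3%) were higher without overlap and 683 (15%) were lower.

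Mmrn1 encodes multimerin 1, a large protein of platelet granules that binds coagulation factor V. It was at or above 1 RPKM in 0 of 78 and 0 of 85 MUL cells, where the floor of 3 cells is 3.85% and 3.53%. In PLT mouse 1 it was found in 28 cells, or 30.1% (exact 95% interval 21.0 to 40.5, as for all intervals here, which cover counting error only). In PLT mouse 2 it was found in 36 cells, or 42.9% (32.1 to 54.1). All PLT values lie above all MUL values, and the difference of 4.54 ± 0.69 (SE) in log odds passed in limma (adjusted p = 0.00279). The 2 plates of a mouse gave similar shares, with 29.8% and 30.4% in PLT mouse 1 and 44.2% and 41.5% in PLT mouse 2. Mean RPKM was 0 in both MUL mice against 97.5 and 84.4 in PLT mice. Since no MUL cell expressed it, there was no level to compare. Among the PLT cells at 1 RPKM or more the geometric mean was 134 and 109 RPKM. In the PEM pair the share was 0% in both mice. The gene lies on chromosome 6 from 60924976 to 60989378 of mm10, on the plus strand, with no other annotated gene overlapping it.

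Mt1 encodes a metallothionein, a small cysteine-rich protein that binds zinc and copper. It was expressed in 16.7% (9.18 to 26.8) and 18.8% (11.2 to 28.8) of MUL cells. In the PLT mice the shares were 82.8% (73.6 to 89.8) and 95.2% (88.2 to 98.7). The groups lie far apart, and the difference of 3.72 ± 0.62 in log odds passed (limma adjusted p = 0.0077). Among expressing cells the geometric mean was 35.6 and 22.6 RPKM in MUL mice against 40.9 and 100 RPKM in PLT mice, a difference of 1.18 ± 0.61 on the log2 scale that did not pass (adjusted p = 0.988). Mt2, the neighbouring metallothionein gene, was found in 0% of both MUL mice and in 9.68% and 14.3% of PLT cells. Its difference of 3.13 ± 0.61 fell just short of the threshold (adjusted p = 0.0567). Mt2 was found in 10.4% of the PLT mouse 1 cells with Mt1 and in 6.25% of those without it, and in 13.8% and 25.0% in PLT mouse 2. In PLT mouse 1, 77 of 93 cells held Mt1, as did 8 of the 9 cells with Mt2. In PLT mouse 2 these counts were 80 of 84 and 11 of 12. Too few cells lacked Mt1 to read an order from these figures. In the PEM pair Mt1 was found in 78.5% and 48.0% of cells.

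Mt1 lies on chromosome 8 from 94179082 to 94180327 and Mt2 from 94172664 to 94173568, both on the plus strand of mm10. Their promoters are shown because both genes had higher shares in both PLT mice and metallothionein genes are known to be switched on through metal response elements. The sequences are RefSeq's for GRCm38.p6, from 250 bases before the start site to 50 after it, at chr8:94178839-94179138 and chr8:94172368-94172667. Capitals mark matches to the core TGCGCNC or TGCACNC on either strand.
Mt1: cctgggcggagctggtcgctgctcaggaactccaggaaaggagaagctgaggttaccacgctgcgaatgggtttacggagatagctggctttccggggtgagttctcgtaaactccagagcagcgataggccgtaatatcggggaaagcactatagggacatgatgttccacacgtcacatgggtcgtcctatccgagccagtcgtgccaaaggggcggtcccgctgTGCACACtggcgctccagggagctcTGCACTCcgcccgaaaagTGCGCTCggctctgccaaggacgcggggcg
Mt2: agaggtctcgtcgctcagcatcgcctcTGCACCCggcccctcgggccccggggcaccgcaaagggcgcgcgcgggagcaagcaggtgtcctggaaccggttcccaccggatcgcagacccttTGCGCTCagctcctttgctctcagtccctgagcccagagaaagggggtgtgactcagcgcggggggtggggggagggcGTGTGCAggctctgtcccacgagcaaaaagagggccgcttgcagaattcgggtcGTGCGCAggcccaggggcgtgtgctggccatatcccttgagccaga
The Mt1 window holds 3 such matches and the Mt2 window holds 4. Of 32851 RefSeq promoters of the same length, counted with 1 chromosome left out, 25.7% hold at least 1. A match describes letters and does not show that a factor binds there.

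Erdr1, named erythroid differentiation regulator 1, had the smallest p of the share test. It was expressed in 1.28% (0.0324 to 6.94) and 0% (0 to 4.25) of MUL cells and in 81.7% (72.3 to 89.0) and 100% (95.7 to 100) of PLT cells. The difference was 7.85 ± 0.80 in log odds (limma adjusted p = 7.01e-06). Mean RPKM was 3.29 and 0 in MUL mice against 102 and 308 in PLT mice. In the PEM pair the shares were 96.8% and 88.0%, so the 2 mice of the MUL experiment stood apart from all 4 others. Its position is not given here because the annotation used does not list the symbol.

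Ctla2b and Ctla2a encode related inhibitors of cysteine proteases. Ctla2b was expressed in 80.8% (70.3 to 88.8) and 96.5% (90.0 to 99.3) of MUL cells but in 15.1% (8.48 to 24) and 31.0% (21.3 to 42.0) of PLT cells. The share fell by 3.53 ± 0.63 in log odds (limma adjusted p = 0.0193). It was also the 1 gene called on mean RPKM. Among its expressing cells the geometric mean was 81.3 and 180 RPKM in MUL mice against 36.9 and 24 RPKM in PLT mice. The level difference of -2.02 ± 0.59 on the log2 scale did not pass (adjusted p = 0.988). Ctla2a was expressed in 91.0% and 100% of MUL cells and in 61.3% and 61.9% of PLT cells, a difference of -3.23 ± 0.81 that did not pass (adjusted p = 0.255). Its geometric mean among expressing cells was 69.7 and 267 RPKM in MUL mice against 6.81 and 21.2 RPKM in PLT mice. That level difference of -3.50 ± 0.73 had the smallest p of the level test and did not pass (adjusted p = 0.939).

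Both genes lie on the minus strand of chromosome 13, Ctla2b from 60895350 to 60897447 and Ctla2a from 60934155 to 60936625. Their longest coding transcripts share 417 of 435 aligned bases (95.9%), so reads could be split between them and the values of each are uncertain. In PLT mouse 2, Ctla2b was found in 50% of the cells with Ctla2a and in 0% of those without it. In PLT mouse 1 the figures were 22.8% and 2.78%. The promoters are printed because the pair had lower values together. They are RefSeq windows of GRCm38.p6 at chr13:60936576-60936875 and chr13:60897398-60897697, both on the minus strand, with matches to the AP-1 motif TGANTCA in capitals.
Ctla2a: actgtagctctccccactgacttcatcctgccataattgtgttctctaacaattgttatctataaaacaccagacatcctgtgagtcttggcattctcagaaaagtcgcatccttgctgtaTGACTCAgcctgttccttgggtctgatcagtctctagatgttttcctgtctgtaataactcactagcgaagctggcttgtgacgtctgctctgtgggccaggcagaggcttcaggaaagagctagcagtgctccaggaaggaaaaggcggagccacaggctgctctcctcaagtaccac
Ctla2b: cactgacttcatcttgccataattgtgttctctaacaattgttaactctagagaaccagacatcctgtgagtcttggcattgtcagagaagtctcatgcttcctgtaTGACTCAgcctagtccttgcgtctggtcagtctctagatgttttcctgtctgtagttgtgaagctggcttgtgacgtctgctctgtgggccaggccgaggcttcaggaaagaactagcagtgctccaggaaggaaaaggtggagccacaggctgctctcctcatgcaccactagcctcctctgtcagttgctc
The 2 windows are identical at 79.2% of aligned positions. Each holds 1 match to the AP-1 letters, which 7.81% of the 32851 RefSeq promoters counted also hold. A second RefSeq window of Ctla2a, not printed, also holds 1 match. Since the windows are largely alike, their matches are not independent. The ETS letters AGGAAG, not marked, have 1 match in Ctla2a and 2 in Ctla2b, and 35.4% of the promoters hold them. Ctla2a also holds 1 match to the GATA letters AGATAA or TGATAA, held by 18.6%. None of these matches shows that a factor binds there.

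Cd27 encodes a receptor of the tumour necrosis factor receptor family that binds CD70 and is present on multipotent progenitors and lymphocytes. It was expressed in 84.6% (74.7 to 91.8) and 100% (95.8 to 100) of MUL cells. The PLT mice had 23.7% (15.5 to 33.6) and 1.19% (0.0301 to 6.46), below both MUL mice but far apart from each other. The share fell by 5.99 ± 0.89 in log odds (limma adjusted p = 0.00279). That SE is moderated over genes and does not measure the spread of Cd27 alone. Cd27 lies on the minus strand of chromosome 6 from 125232622 to 125237010 and overlaps Vamp1 on the plus strand. The kit does not mark strand. The highest share of cells with Vamp1 at 1 RPKM in the 4 mice was 3.53%. Whether reads of the overlap entered the Cd27 values was not tested.

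These 5 calls rest on few mice. The share fit had 24.6 degrees of freedom in total, of which 3 were residual. Each SE and p of that fit thus drew mostly on the spread of other genes. With the PEM pair left out of the fit, 0 genes passed (lowest adjusted p = 0.08, with 105 higher and 368 lower at an unadjusted p under 0.05). The fits that left out 1 mouse kept only 1 mouse in its group. Without either MUL mouse, a gene's own spread carried no weight in the share fit. Mmrn1 did not pass without PLT mouse 2 (adjusted p = 0.14), nor did Cd27 (0.15). Ctla2b did not pass without MUL mouse 2 (0.67) or PLT mouse 2 (0.067). Mt1 did not pass without MUL mouse 1 (0.10), MUL mouse 2 (0.051) or PLT mouse 2 (0.10). Without PLT mouse 1 the number of called genes rose to 73, of which 50 were higher. Cells that hold markers of mature cell types other than megakaryocytes were also left out. Mmrn1, Mt1, Erdr1 and Cd27 passed in that limma fit (adjusted p = 0.006 for Mmrn1, Mt1 and Cd27), while Ctla2b had an adjusted p of 0.051. No cell was removed for its megakaryocyte markers. With each mouse centred on its median logit, 5 genes were higher and 1 was lower. Cd27 did not pass there (adjusted p = 0.060), while Clu (0.021) and Mt2 (0.032) did.

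**Figure D1:**
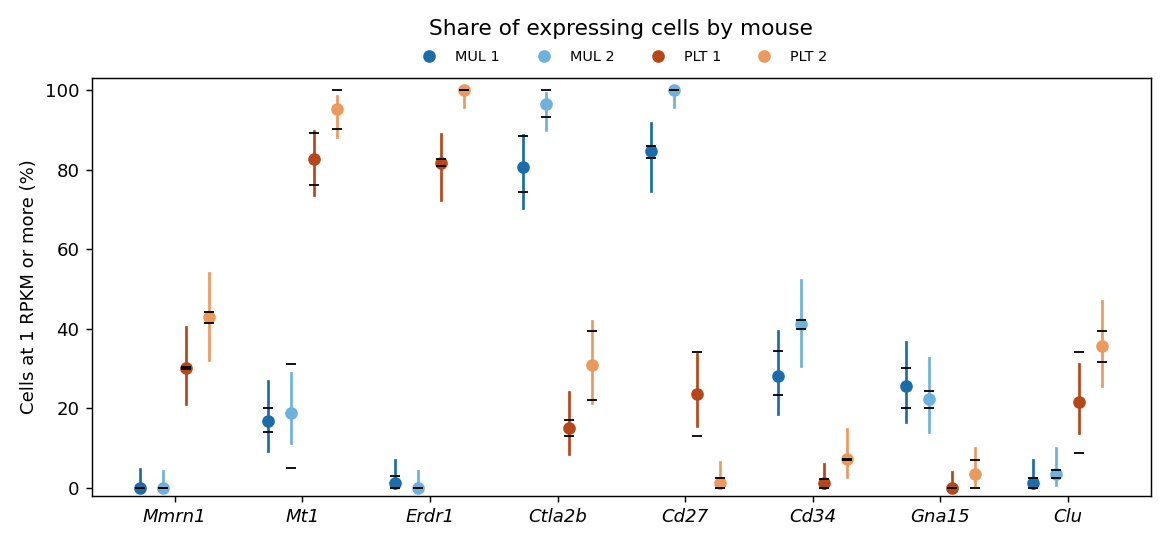
Share of cells at 1 RPKM or more (y axis, percent) for 8 genes in each of the 4 mice. Points are mice, vertical lines are exact 95% intervals for counting error, and black ticks are the 2 plates of each mouse. For all 8 genes the PLT and MUL points do not overlap, and Cd27 shows the widest gap between the PLT mice (23.7% against 1.19%).

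Next to the called genes stood several that the share test ranked high but did not call. Clu, which encodes the extracellular chaperone clusterin, was expressed in 1.28% and 3.53% of MUL cells and in 21.5% and 35.7% of PLT cells (difference 2.62 ± 0.54, limma adjusted p = 0.0844). Gkn3, which encodes a gastrokine, was found in 2.56% and 1.18% against 16.1% and 31.0% (adjusted p = 0.144). The C-type lectin receptor genes Klrb1a and Klrb1c, which belong to a cluster known from natural killer cells, had 0% and 0% against 20.4% and 9.52%, and 0% and 1.18% against 28.0% and 13.1%. Neither passed (adjusted p = 0.106 and 0.118). On the lower side stood Gna15, which encodes an alpha subunit of G proteins found in blood cells. It was found in 25.6% and 22.4% of MUL cells and in 0% and 3.57% of PLT cells (difference -3.05 ± 0.61, adjusted p = 0.0567). Cd34, the gene of a sialomucin that is low on the most dormant mouse HSCs, was found in 28.2% and 41.2% against 1.08% and 7.14% (difference -2.67 ± 0.57, adjusted p = 0.106). Its levels among expressing cells were 246 and 243 RPKM in MUL mice against 137 and 151 RPKM in PLT mice, the latter from 1 and 6 cells.

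Some genes reached 1 RPKM in cells of PLT or of MUL mice but not of both. Of the tested genes, 8 had no MUL cell at 1 RPKM and at least 3 cells in both PLT mice. They include Mmrn1, Mt2, Klrb1a, the glutathione peroxidase gene Gpx8, the receptor modifier gene Ramp2, the clock-linked repressor gene Bhlhe41, and Sbspon. Apart from Mmrn1, the genes named here were sparse, at 4.30% to 20.4% of PLT cells. The reverse, no PLT cell and at least 3 cells in both MUL mice, held for 19 genes. Paqr5, a membrane progestin receptor gene, led with 11.5% and 11.8% of MUL cells. The chemokine gene Ccl3 followed with 7.69% and 10.6%, and Tnfsf13, which encodes the B cell cytokine APRIL, had 5.13% and 12.9%. Nfam1, Socs3, Sgk1, Sesn3 and Usp2 were also in this set, each at 3.53% to 8.24% of MUL cells. The floors of 3 cells in the PLT mice are 3.23% and 3.57%, so genes near these shares cannot be called absent. Most were also met in the PEM pair: of the 8 genes Mmrn1 alone had no PEM cell at 1 RPKM, and of the 19 Ccl3 and Dnajc6 had none. These sets were picked by the values and were not tested. Of the 8 PLT genes, Mmrn1 alone was called in the share test, and none of the 19.

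Whether 2 markers mark the same cells was read within each mouse. Ctla2b was found in 14.3% of the PLT mouse 1 cells with Mmrn1 and in 15.4% of those without it. In PLT mouse 2 the figures were 30.6% and 31.3%. In both mice the figures with and without Mmrn1 were close. Vwf, the gene by which the transplanted cells had been chosen, was expressed in 11.5% and 15.3% of MUL cells and in 25.8% and 44.0% of PLT cells (adjusted p = 0.937). Mmrn1 was found in 25.0% of PLT mouse 1 cells with Vwf and in 31.9% of those without it, and in 48.6% and 38.3% in PLT mouse 2. The order thus turned around between the mice. For Clu and Mmrn1 the figures were 25.0% with Clu against 31.5% without in PLT mouse 1, and 50.0% against 38.9% in PLT mouse 2.

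**Figure D2:**
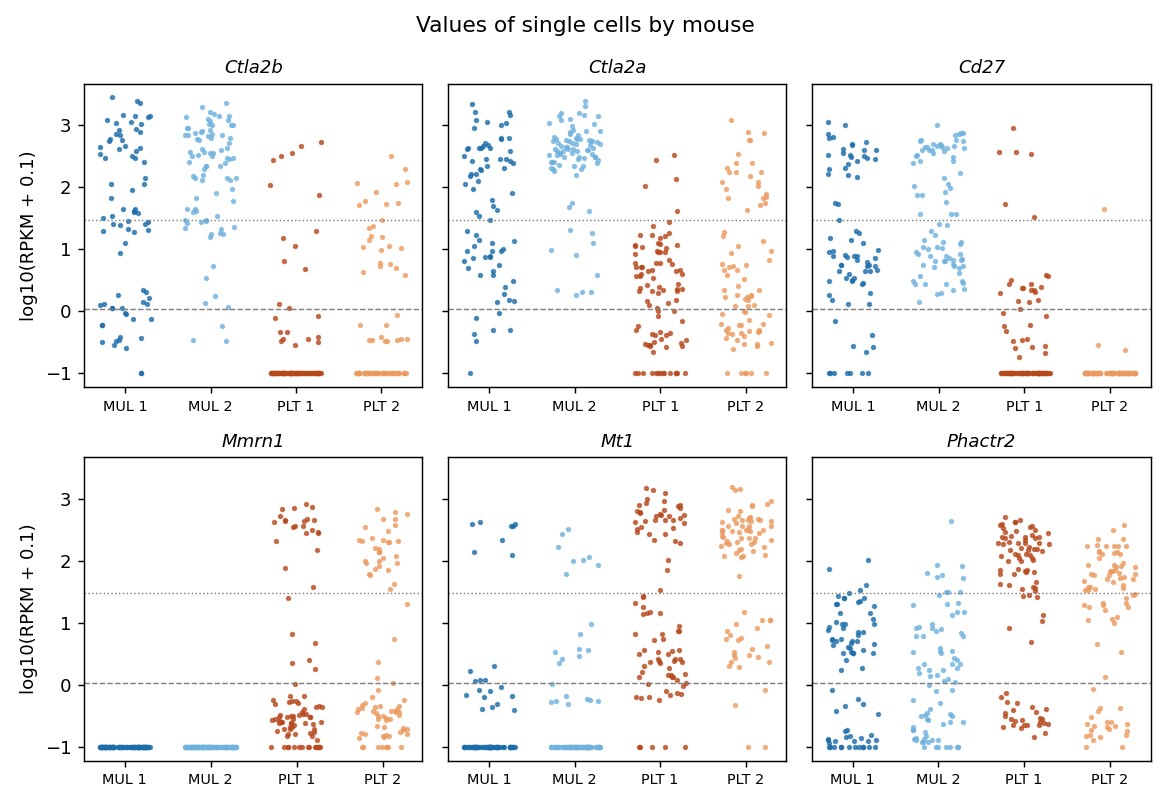
Values of single cells for 6 genes, as log10 of RPKM plus 0.1 (y axis), by mouse (x axis, points jittered sideways). The dashed line is 1 RPKM and the dotted line is 30 RPKM. Mmrn1 in PLT cells and Mt1 form high and low clouds, other genes such as Ctla2a in PLT mouse 1 and Phactr2 in the MUL mice spread between the lines, and no MUL cell reaches 1 RPKM for Mmrn1.

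The plot of single-cell values shows that the threshold matters. Low values were met where other cells of the same mouse were high. Among genes for which no cell of a mouse reached 30 RPKM, a median of 1.28%, 3.53%, 1.08% and 2.38% of cells had any value above 0 in MUL mouse 1, MUL mouse 2, PLT mouse 1 and PLT mouse 2. Among genes that reached 30 RPKM in over 20% and up to 60% of cells, a median of 61.2%, 62.9%, 69.6% and 64.7% of the remaining cells were above 0. Mmrn1 lay between 0 and 10 RPKM in 59.1% and 51.2% of PLT cells and in 0% of both MUL mice. The source of these low values was not tested. A share at 1 RPKM therefore counts part of them for genes with a high peak.

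At 30 RPKM, a threshold added after the data were seen, Mmrn1 was found in 23.7% and 38.1% of PLT cells and in 0% of both MUL mice. Mt1 was found in 10.3% and 9.41% of MUL cells against 40.9% and 69.0% of PLT cells. For Erdr1 the shares were 1.28% and 0% against 63.4% and 100%. Ctla2b was found in 52.6% and 76.5% against 7.53% and 11.9%, and Cd27 in 35.9% and 49.4% against 6.45% and 1.19%. All 5 genes kept groups without overlap. Of these, 4 passed again in limma, and Mt1 had an adjusted p of 0.11. Csf3r, the receptor gene for granulocyte colony-stimulating factor, had shares that overlapped at the lower threshold. It was at 1 RPKM or more in 83.3% and 82.4% of MUL cells and in 82.8% and 54.8% of PLT cells, at geometric means of only 1.78 to 5.06 RPKM. At 30 RPKM it was found in 10.3% and 17.6% of MUL cells and in 0% of both PLT mice, and it was called. The 5 genes called at 30 RPKM were Mmrn1 and Erdr1 on the higher side and Cd27, Ctla2b and Csf3r on the lower side.

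Each gene's change was then split exactly into a frequency part (the log2 ratio of the shares) and a level part (the log2 ratio of the mean RPKM among expressing cells). The split was possible for 7456 genes with at least 3 expressing cells in each of the 4 mice and is a description without a test. At 1 RPKM, 1732 genes differed by 2-fold or more in total. The frequency part was the larger for 50.1% of them. Among the 540 that were higher in PLT it was the larger for 35%, and among the 1192 that were lower for 56.9%. For genes changed 2-fold the median size of the frequency part was 0.74 and that of the level part 0.73, while mice of the same group differed by medians of 0.64 and 0.84. By pair, the MUL mice differed by 0.41 and 0.46, and the PLT mice, from different experiments, by 0.73 and 1.08. The parts compare averages of 2 mice and the pairs compare single mice, so their sizes are not on 1 footing. The answer moved with the threshold. The frequency part was the larger for 65.2% of 1313 genes at 10 RPKM and for 75.8% of 1080 genes at 30 RPKM. At 30 RPKM it was the larger for 61.6% of the higher genes and 83.1% of the lower ones.

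Single genes show both forms. Dusp1, an immediate early phosphatase gene, differed more in frequency than in level: 32.1% and 64.7% of MUL cells expressed it against 5.38% and 11.9% of PLT cells, with a frequency part of -2.51 and a level part of -1.07. Pik3ip1, an inhibitor of phosphoinositide 3-kinase and a FoxO target, was found in 44.9% and 72.9% against 8.60% and 14.3%, with parts of -2.37 and -0.49. Tsc22d3, the glucocorticoid-induced leucine zipper gene, was lower in both ways. Its shares were 80.8% and 96.5% against 36.6% and 34.5%, and its geometric means among expressing cells were 229 and 496 RPKM against 180 and 75.0 RPKM. None of these 3 passed the share test (adjusted p = 0.196, 0.181 and 0.118).

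Phactr2, which encodes a regulator of phosphatase 1 and actin, led the higher side of the level test without passing it (3.22 ± 0.71 on the log2 scale, limma adjusted p = 0.939). At 1 RPKM its shares lay close together, at 60.3% and 55.3% of MUL cells against 72.0% and 73.8% of PLT cells. Its geometric means were 8.96 and 7.64 RPKM against 116 and 51.4 RPKM. At 30 RPKM the same cells read as a change of frequency, with 6.41% and 11.8% of MUL cells against 64.5% and 53.6% of PLT cells. Gstm2, a glutathione transferase gene, also differed between thresholds: its frequency and level parts were 0.32 and 1.83 at 1 RPKM and 2.13 and 0.08 at 30 RPKM. Pam, which encodes the enzyme that amidates peptide hormones, had parts of 0.17 for frequency and 2.46 for level at 1 RPKM. It was at 1 RPKM or more in 89.7% and 88.2% of MUL cells and 100% of both PLT mice, at geometric means of 28.7 and 16.6 RPKM against 222 and 64.4 RPKM. At 30 RPKM the parts were of similar size, 1.59 and 1.69. Its level there was higher in PLT in limma, 1 of 2 genes called with Actb. In that fit the spread was pooled over genes, and a gene's own spread carried no weight. Geometric means of Pam among cells at 30 RPKM or more were 51.1 and 51.9 RPKM in MUL mice against 228 and 88.8 RPKM in PLT mice.

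**Figure D3:**
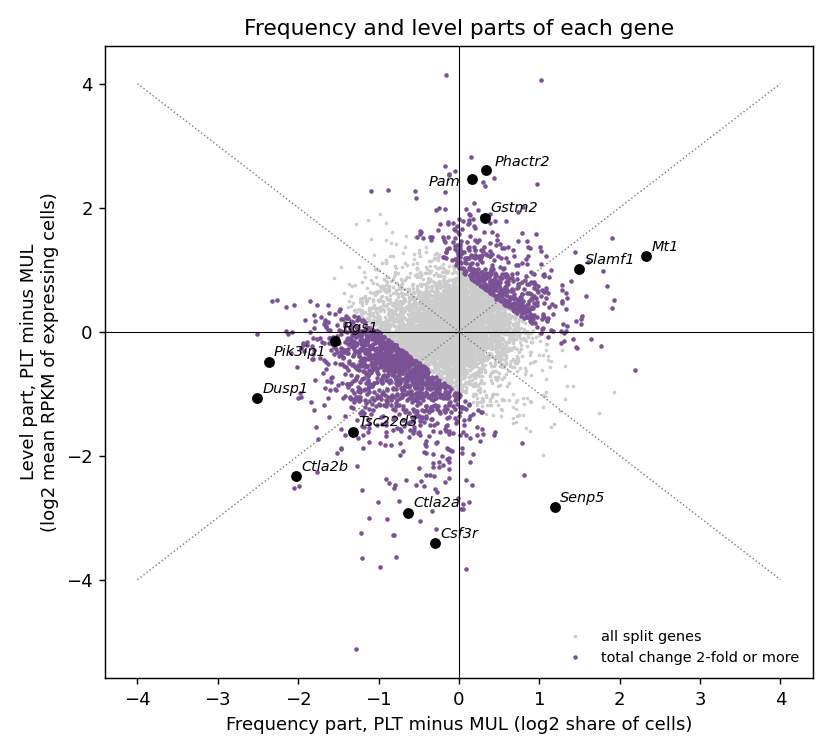
Frequency part (x axis) and level part (y axis) of the PLT minus MUL difference, both in log2, for the 7456 genes split at 1 RPKM. Purple points differ by 2-fold or more in total, dotted diagonals mark equal parts, and black points are named genes. Phactr2, Pam and Gstm2 lie near the vertical axis, Dusp1 and Pik3ip1 lie towards the left, and Ctla2b has parts of similar size.

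Gene lists were read by counts beside the background of 7.32% higher and 22.1% lower without overlap in share. Members whose mean reached 1 RPKM in fewer than 2 of the 6 mice were not tested, so counts are of the tested members, and members can have passed through the group where they are high. Of 18 genes for platelet granule and secreted proteins 12 were tested, of which 5 had higher shares in both PLT mice and 1 was lower, and Mmrn1 was called. The 5 include Vwf and Clu, and Ppbp, the gene of platelet basic protein, at 0% and 0% of MUL cells against 1.08% and 13.1% of PLT cells. Pf4, which encodes platelet factor 4, was found in 24.4% and 12.9% of MUL cells against 17.2% and 75.0% of PLT cells, so PLT mouse 2 alone was high. Of 19 tested genes for platelet receptors and integrins, 1 was higher and 3 were lower. F2rl3, a thrombin receptor gene, was found in 19.2% and 15.3% of MUL cells against 2.15% and 8.33% of PLT cells. Of 20 transcription factor genes of the megakaryocyte and erythroid lineages, 2 were higher and 4 lower. Nfe2 was found in 88.5% and 100% against 59.1% and 75.0%, while Gata1 was found in 10.3% and 10.6% against 4.30% and 40.5%. Mature megakaryocyte markers were most frequent in PLT mouse 2 (25.0% of cells held at least 3), and their part in these values was not tested.

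Of 30 genes linked to HSC ageing 29 were tested, of which 15 (51.7%) were higher without overlap and 0 were lower. They include Clu, Gkn3, Mt1, Mt2, Vwf and Slamf1, which are described above. The median logit difference was 0.91, against -0.15 over all genes, and 1 member (Mt1) was called. Several of these genes were named in earlier results of these data, so the list is not independent evidence. Over its 14 split genes the median parts were 0.39 for frequency and 0.29 for level, and 0.51 and 0.08 over 13 genes at 30 RPKM. Of 30 genes of HSC identity and self-renewal, 4 (13.3%) were higher and 8 (26.7%) lower, beside 7.32% and 22.1% over all tested genes. Procr, Hlf and Mecom overlapped between the groups: Procr was found in 21.8% and 24.7% of MUL cells and in 24.7% and 15.5% of PLT cells, Hlf in 23.1% and 48.2% against 26.9% and 22.6%, and Mecom in 24.4% and 30.6% against 28.0% and 29.8%.

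Of 28 immediate early and stress genes 19 were tested, of which 13 (68.4%) were lower without overlap and 0 were higher. Fos, which encodes an AP-1 subunit, was found in 14.1% and 8.24% of MUL cells against 0% and 1.19% of PLT cells, and Ccl3 and Dusp1 are given above. The median parts over 10 members were -0.90 for frequency and -0.46 for level. Of 16 glucocorticoid and FoxO response genes, 9 were lower and 0 higher, with median parts of -0.46 and -0.38 over 11 members. Neither list had a called gene. Among 31 lysosome genes, 14 were lower and 2 higher, with median parts of -0.61 and -0.11 over 28 members. Ctsd, the gene of cathepsin D, was found in 42.3% and 62.4% of MUL cells against 9.68% and 17.9% of PLT cells. Ctss, the gene of cathepsin S, was found in 8.97% and 14.1% against 0% and 3.57%. Ppt1, a lysosomal thioesterase gene, turned with the threshold. At 1 RPKM it was found in 76.9% and 58.8% of MUL cells against 90.3% and 95.2% of PLT cells, and at 30 RPKM in 29.5% and 30.6% against 20.4% and 21.4%.

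Of 16 tested myeloid genes 5 (31%) were lower and 0 higher, beside 22.1% lower and 7.32% higher over all tested genes. Among the 5 was Sfpi1, which encodes the transcription factor PU.1, at 23.1% and 31.8% of MUL cells against 6.45% and 9.52% of PLT cells. Of 15 lymphoid priming genes 7 (46.7%) were lower and 0 higher. Over the 8 members that could be split the median parts were -0.09 for frequency and 0.07 for level. These were near the -0.10 and 0.02 over all split genes. Flt3, a cytokine receptor gene of early progenitors, was found in 2.56% and 8.24% of MUL cells and in 0% of both PLT mice. Erythroid genes gave 1 higher and 0 lower of 16. Of 22 genes of heterotrimeric G protein signalling 5 (22.7%) were lower and 0 higher, so the share lower was near that over all tested genes. Gna15 came first by p. Rgs1, a regulator of G protein signalling, was found in 53.8% and 68.2% against 10.8% and 40.5%, at geometric means of 208 and 190 RPKM against 298 and 216 RPKM.

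Ribosomal protein genes were expressed in nearly all cells of all 4 mice, with median shares of 96.2%, 96.5%, 93.5% and 100% in MUL mouse 1, MUL mouse 2, PLT mouse 1 and PLT mouse 2. Of 79 genes in the level test, 26 were higher in both PLT mice and 0 lower, beside a background for level of 16.3% higher and 15% lower. The median parts were 0.00 for frequency and 0.52 for level. Their median log2 level among expressing cells was 8.52 and 8.47 in MUL mice against 8.17 and 9.67 in PLT mice, so the geometric level of PLT mouse 1 lay below both MUL mice and that of PLT mouse 2 above. Oxidative phosphorylation genes gave 25 higher and 4 lower of 73 in level, beside the same background, with median parts of 0.16 and 0.44. Their median shares were 65.4% and 62.9% in MUL mice against 56.5% and 92.3% in PLT mice, again highest in PLT mouse 2. Neither list had a gene called in the level test.

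**Figure D4:**
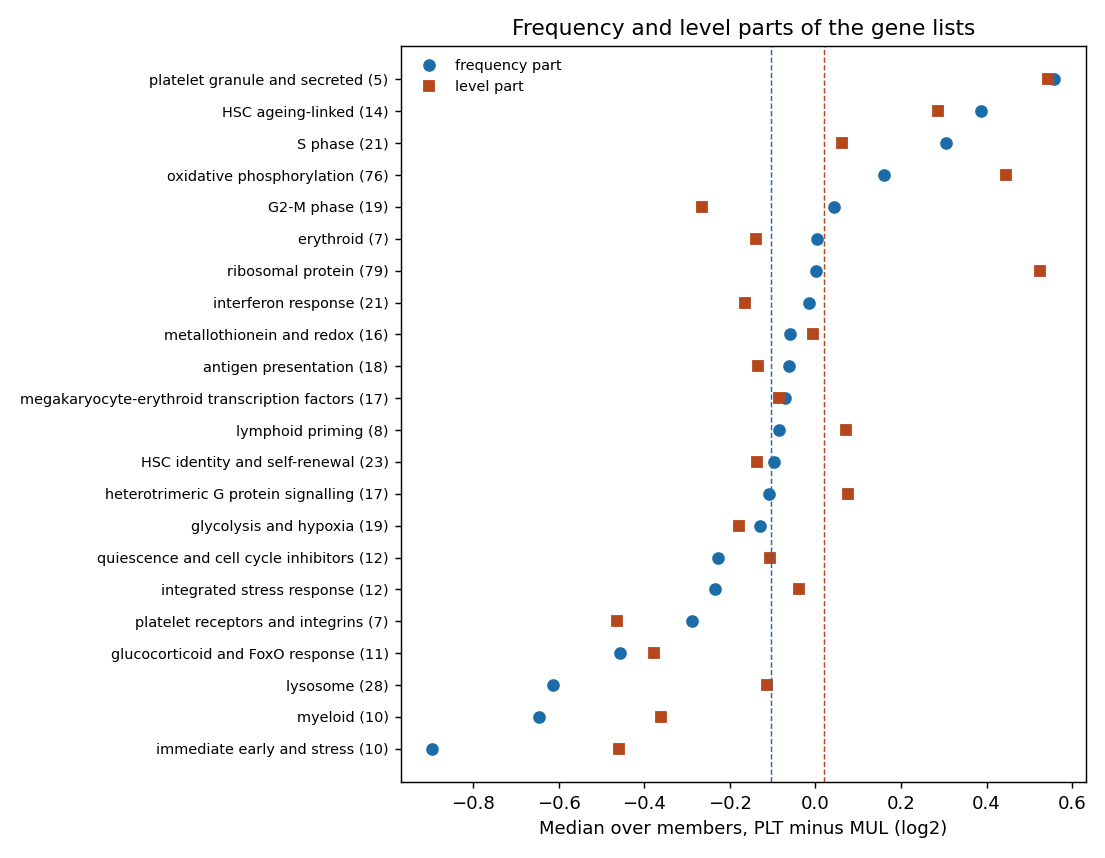
Median frequency part (circles) and level part (squares) of the PLT minus MUL difference in log2 (x axis) for each gene list (y axis, with the number of members split in brackets). Dashed lines are the medians over all 7456 split genes, -0.10 for frequency and 0.02 for level. Immediate early, myeloid and lysosome genes lie to the left mainly by frequency, and ribosomal protein genes lie to the right by level.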

How the data were processed

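Donor-derived HSCs of 4 mice (2 PLT, 2 MUL) were compared, with 2 PEM mice adding to the shared spread. RPKM values for 22645 genes were deposited by the authors. The submitters' processing notes name TopHat, featureCounts and the build mm10, and their versions are not given in the sources used here. A second table gives the counts of mapped reads and detected genes and the percent of mitochondrial reads, per the file headers. No cell was filtered and no doublet caller was run. No 2 cells had identical values.

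Cells were summarised per mouse as the mean RPKM, the share of cells at 1 RPKM or more and the mean log2 RPKM among those cells. A gene was tested where its mean reached 1 RPKM in 2 or more of the 6 mice. The tests were limma 3.58.1 (R 4.3.3; trended eBayes, two-sided, 3 residual degrees of freedom before moderation) on log2(mean + 1), on the empirical logit of the share with 0.5 added to each count, and on the level of genes with at least 5 expressing cells in each mouse. Adjustment was by Benjamini-Hochberg over all genes of a test, at 0.05. The fits were tested on simulated data. With 2 mice a group the smallest p of an exact permutation test is 0.333, and none was run.

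Named genes were the 8 with the smallest p in each direction of the share and mean tests and the 6 of the level test, called genes, up to 3 per list and a kept list; others were named after their values were seen, namely those found in 1 group alone, members of lists and genes called under an added setting. The members and lists were chosen with earlier results of these data known. Positions are from GENCODE M21 on the same build, matched by symbol for 140 of 143 genes, and promoters are RefSeq's for GRCm38.p6, matched for 5 of 5 genes.

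Alternatives were other thresholds, filters, scalings, the plates, a window of 1800 to 3000 detected genes and leaving out each mouse. Thresholds of 30 RPKM, the removal of cells with at least 3 mature-cell markers (megakaryocyte markers not counted) and the centring of shares were chosen after seeing the data.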

Additional observations from a re-analysis of the deposited data

How the results depend on the processing

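The share test called 5 genes. Across leave-one-out fits it called between 4 (without PLT mouse 2) and 73 (without PLT mouse 1), with 5 without MUL mouse 1 and 11 without MUL mouse 2. It called 0 with the 4 mice only, 0 on the arcsine scale and 0 with no filter on low values. It called 2 without the intensity trend, 2 in the window of detected genes, 1 in plate 1, 3 in plate 2 and 2 counting cells above 0. It called 12 at 10 RPKM and 10 for genes in at least 10% of the cells of 2 mice, where Mmrn1 was not called (adjusted p = 0.51). The test of mean RPKM called 1 gene, and 0 in each leave-one-out fit. It called 2 with a pseudocount of 10, 3 after quantile normalization, 19 with no filter and 1 with median-ratio scaling, and 0 under every other alternative run. That scaling moved the median difference over all genes from -0.18 to -0.04 (log2). The level test called 0 genes, and between 0 and 1 (Ctla2a, without MUL mouse 1) in leave-one-out fits. It called 2 with at least 10 expressing cells (Ctla2a and Phactr2), 6 at 10 RPKM and 2 at 30 RPKM, and 0 under the other alternatives. In the level fit at 30 RPKM a gene's own spread carried no weight. The frequency part was the larger for 50.1% of genes changed 2-fold, for 65.2% at 10 RPKM and for 75.8% at 30 RPKM. None of the genes repeated under the alternatives (16 for mean and share, 12 for level) changed direction in the measure repeated. Ppt1, not among them, and Senp5, repeated for level only, turned in share at 30 RPKM. Of 271 repeats of the share test over 16 genes, 217 kept the call or its absence, 41 lost a call and 13 gained one. All 41 losses fell on the 5 called genes, each repeated 17 times. Mt1 lost its call in 12 repeats, Ctla2b in 9, Cd27 in 9, Mmrn1 in 8 and Erdr1 in 3. Except where the construction shows it (fewer mice, cells or genes), the cause was not tested. No paired analysis was possible because the labels give the mice no shared replicate numbers. The number of cells per mouse sets the 3-cell floors given above.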

Other observations

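Among genes ranked by the level test but not called, Usp39, Ermp1 and Zfp39 were higher in the expressing PLT cells. The geometric means of Usp39, a splicing factor gene, were 260 and 130 RPKM in the PLT mice against 48.0 and 30.5 RPKM in the MUL mice, while fewer PLT cells expressed it (8.60% and 23.8% against 26.9% and 25.9%). Among cells at 30 RPKM or more its geometric means overlapped, at 260 and 154 RPKM against 237 and 168 RPKM. On the lower side Senp5, which encodes a SUMO protease, had geometric means of 5.60 and 12.1 RPKM in the MUL mice against 1.99 and 2.93 RPKM in the PLT mice, with more PLT cells at 1 RPKM (43.0% and 23.8% against 16.7% and 11.8%) but fewer at 30 RPKM (0% and 3.57% against 3.85% and 5.88%). In limma none passed, with adjusted p between 0.939 and 0.988.

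Vldlr, the gene of the very low density lipoprotein receptor, was found in 22.4% of the cells of MUL mouse 2 and in 0% of MUL mouse 1 and of both PLT mice, so it separates the mice of 1 group. The Y-linked gene Uty was found in 0% of PLT mouse 1 cells and in 15.4%, 15.3% and 15.5% of MUL mouse 1, MUL mouse 2 and PLT mouse 2, although Ddx3y, also Y-linked, was found in 35.5% of PLT mouse 1 cells.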
